A study of Arabidopsis thaliana with 3 samples.

Results

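At 5 genes of Arabidopsis thaliana the peak scores of the floral proteins PISTILLATA (PI) and APETALA3 (AP3) were most unequal. AT1G67340 and COB (AT5G60920) had high PI scores. OTP70 (AT4G25270), AT4G25280 and AT4G25290 had high AP3 scores. The 5 genes were chosen from the ratio of the PI score to the AP3 score, so these scores are given as a description and were not tested. They are 5 of 3132 genes listed for either protein and of 1558 listed for both, and they rest on 3 sites, because the 3 genes with high AP3 scores share 1 peak.

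Chromatin immunoprecipitation and sequencing (ChIP-seq) was done with an anti-GFP antibody on flowers in the Ler background. The PI-GFP AP1-GR ap1 cal and AP3-GFP AP1-GR ap1 cal plants were set against a negative control, AP1-GR ap1 cal, which has the same system and no GFP-tagged factor. In all 3 groups, an AP1-GR fusion driven by the 35S promoter in ap1-1 cal-1 mutants was activated with 10 µM dexamethasone in plants about 4 weeks old, which starts flower development in many meristems together, and flowers of about stage 4-5 were collected 4 days later. Each group has 1 library, so no value below has a replicate error, and values of the negative control were not analysed here. The sole tissue is therefore a flower with mutant AP1 and CAL genes that develops under a fusion protein. Both peak lists were made against that 1 control, and what it contributes at these sites was not tested.

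PI and AP3 are MADS-domain transcription factors that together specify petals and stamens. They act as a heterodimer, which recognises CArG boxes in DNA in complexes with other MADS-domain proteins such as the SEPALLATA proteins. AT1G67340 encodes a protein with an F-box and a MYND-type zinc finger, per the deposited annotation. COB encodes COBRA, a glycosylphosphatidylinositol-anchored protein that orients cell expansion and the deposition of cellulose. OTP70 encodes a pentatricopeptide repeat protein that acts on organelle transcripts. AT4G25280 encodes a protein of the adenylate kinase family, and AT4G25290 encodes a protein of the DNA photolyase family.

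The PI-GFP list held 1852 peaks and the AP3-GFP list 1524 peaks. A peak's score is the authors' own value, which the file headers call Poisson, and its scale relative to library size is not given in the sources used here. Median scores were 88.1 for PI and 58.6 for AP3. The lowest scores were 25.3 for PI and 26.6 for AP3. Numbers of reads were not analysed, so depth is unknown, and a ratio of scores is not a ratio of binding. All positions are on the TAIR10 build. Where a PI peak overlapped AP3 peaks by at least 1 bp, the AP3 peak with the largest score was taken as its partner, which gave 1025 shared pairs. The median ratio of the PI score to the AP3 score over these pairs was 1.60 (quartiles 1.05 and 2.45), and 77.7% of the pairs had the higher score for PI.

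AT1G67340 had the highest ratio of the 1025 pairs. It ranked 2nd when each AP3 peak was paired with a PI peak, and 10th by the difference of rank percentiles within each list. Its PI peak scored 3560, and its AP3 peak scored 49.0, a ratio of 72.7. The PI peak was the second highest of its list, whereas the AP3 peak ranked 905th in its list, below the median AP3 score. The PI peak spanned chromosome 1, 25228708 to 25229280 (573 bp), with its maximum at 25229007. The AP3 peak spanned 25228862 to 25229052 (191 bp), with its maximum at 25228906, and lay wholly inside the PI peak.

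In both gene tables this score stood in a single window of AT1G67340, 1000 to 2000 bp upstream of the gene. The gene tables hold 5 windows per gene, which are 2000 to 3000, 1000 to 2000 and 0 to 1000 bp upstream, inside the gene, and 0 to 1000 bp downstream. The other 4 windows of AT1G67340 were at 0 in both tables. In the PI table its score was the highest of 457 genes with a score 1000 to 2000 bp upstream. In the AP3 table it ranked 222nd of 374 genes in the same window. The flanking protein-coding genes AT1G67330 and AT1G67350 were listed for neither protein.

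COB had the second highest ratio of these pairs, and ranked 7th by the difference of rank percentiles. Its PI peak scored 1468 (rank 25), and its AP3 peak scored 45.9 (rank 962), a ratio of 32.0. The PI peak spanned chromosome 5, 24510100 to 24510852 (753 bp), with its maximum at 24510374. The AP3 peak spanned 24510496 to 24510722 (227 bp), with its maximum at 24510517, and also lay inside the PI peak. As at AT1G67340, the AP3 score was below the median of its list.

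The score stood in the window 0 to 1000 bp downstream of COB in both tables, and the other 4 windows were at 0. Among genes with a score in the downstream window, COB ranked 8th of 546 in the PI table and 288th of 499 in the AP3 table. The AP3 score of 45.9 belonged to 4 AP3 peaks on chromosome 5, so the tie between COB and this AP3 peak rests on the shared window and the overlap with the PI peak, whose score belonged to 1 peak. AT5G60930, the next protein-coding gene after COB, was listed for neither protein.

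OTP70, AT4G25280 and AT4G25290 had the lowest ratio, and ranked 2nd from the low end by the difference of rank percentiles. Their shared peak scored 56.5 for PI and 348 for AP3, a PI to AP3 ratio of 0.162, so that the AP3 score was 6.16 times the PI score. The PI peak ranked 1300th in its list, below the median PI score, and the AP3 peak ranked 103rd. The PI peak spanned chromosome 4, 12940991 to 12941189 (199 bp), with its maximum at 12941075. The AP3 peak spanned 12940859 to 12941254 (396 bp), with its maximum at 12941088. Here the PI peak lay wholly inside the AP3 peak, the reverse of the arrangement at AT1G67340 and COB. Over all shared pairs, the AP3 peak lay inside the PI peak at 67.6%, so the arrangement at AT1G67340 and COB was the usual one. The PI peak lay inside the AP3 peak at 7.32%.

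The 1 site was entered under 3 genes. It lay 2000 to 3000 bp upstream of OTP70, 0 to 1000 bp upstream of AT4G25280 and 0 to 1000 bp downstream of AT4G25290 in both tables. The other windows of all 3 genes were at 0. In the PI table the score ranked 359th of 524 genes in the window of OTP70, 623rd of 888 in that of AT4G25280 and 379th of 546 in that of AT4G25290. In the AP3 table it ranked 28th of 390, 54th of 653 and 31st of 499 in the same windows. The 3 genes follow each other directly along the chromosome, and their outer protein-coding neighbours AT4G25260 and AT4G25300 were listed for neither protein. A peak entered under 3 or more genes was not the usual case, at 15.2% of PI peaks and 15.9% of AP3 peaks that could be tied to any gene by a score found at 1 peak of the chromosome.

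**Figure D1:**
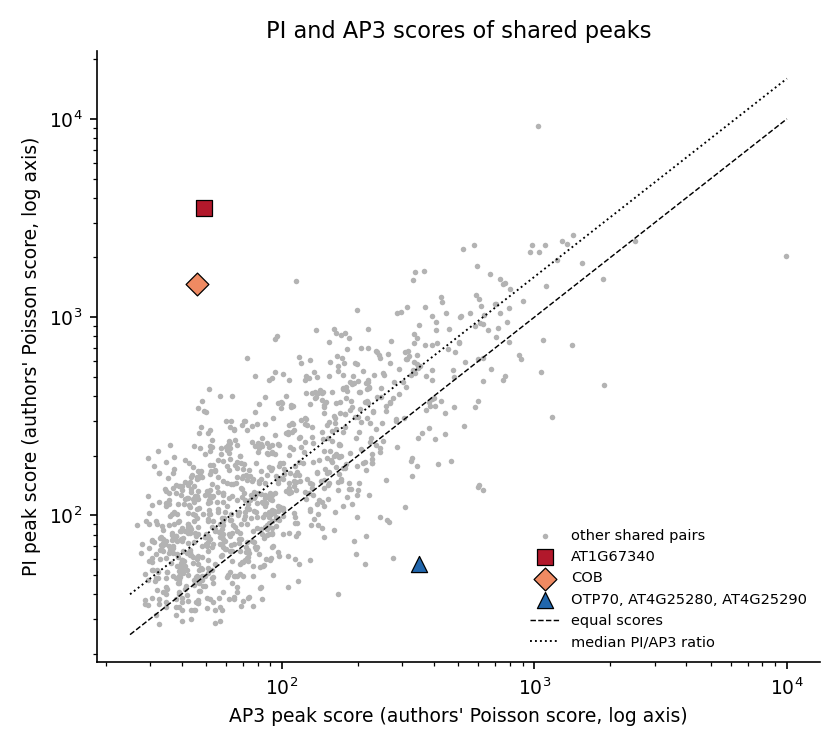
PI score against AP3 score of the 1025 shared pairs, both on log axes, with 1 point per pair; the dashed line marks equal scores and the dotted line the median ratio of 1.60. AT1G67340 (3560 for PI, 49.0 for AP3) and COB (1468 for PI, 45.9 for AP3) lie above the other pairs of like AP3 score, and the site of OTP70, AT4G25280 and AT4G25290 (56.5 for PI, 348 for AP3) lies below those of like AP3 score.

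The sites stood at the ends of the order of ratios, which is how they were chosen. The ratio was at least 4 times its median at 1.56% of shared pairs, and the median was at least 4 times the ratio at another 1.56%. The ratio of AT1G67340 was 45.5 times the median and that of COB 20.02 times, while the median was 9.85 times the ratio at OTP70. Because the rule used this ratio, nothing further is read from these shares.

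At the high end the next ratio after AT1G67340 (72.7) and COB (32.0) was 13.5. That pair lay 1000 to 2000 bp upstream of AT5G66550, of the Maf family, and of AT5G66560, of the NPH3 family of phototropic responses (1529 for PI, 113 for AP3). PI itself followed with 8.92, at the gene whose protein was tagged. The rest of the 10 highest were close together, between 8.60 and 7.47. They lay upstream of AT4G31340 (ratio 8.60), which is annotated as related to myosin heavy chain, at AT1G10740, AT1G10745 and AT1G10747 (8.44), at AT5G56260 and the WRKY factor gene WRKY2 (8.40), at AT2G29970 (8.25), annotated as related to heat shock proteins, and upstream of PPD2 (AT4G14720; 7.47), which limits the growth of the leaf lamina. A pair with a ratio of 7.78 on chromosome 1 was tied to no gene. With this pairing the step between COB and the next pair was a factor of 2.37. With each AP3 peak paired with a PI peak instead, AT1G67340 ranked 2nd and COB 4th, so other pairs stood above COB. Those others joined a PI peak to an AP3 peak that was not its highest-scoring partner.

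At the low end no such step was seen. The next ratio after OTP70 (0.162) was 0.205, at AP3 itself and its neighbour emb1967 (2038 for PI, 9926 for AP3). MDAR1 (AT3G52880), which encodes a peroxisomal monodehydroascorbate reductase, followed with 0.216 (135 for PI, 625 for AP3). The pair upstream of iPGAM1 (AT1G09780), a phosphoglycerate mutase gene, and downstream of COBL6 (AT1G09790) had 0.220. The others of the 10 lowest lay at ELIP2, AT4G14695 and ORC1A (0.233), inside AT1G40104 (0.235), at BBX13, AT1G28040 and AT1G28060 (0.243), at ASD1, MIR158a and AT3G10750 (0.265) and inside HAM3 (0.266), and 1 pair on chromosome 4 was tied to no gene (0.241). HAM3 encodes a GRAS-domain transcription factor and ASD1 an arabinofuranosidase of the cell wall.

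**Figure D2:**
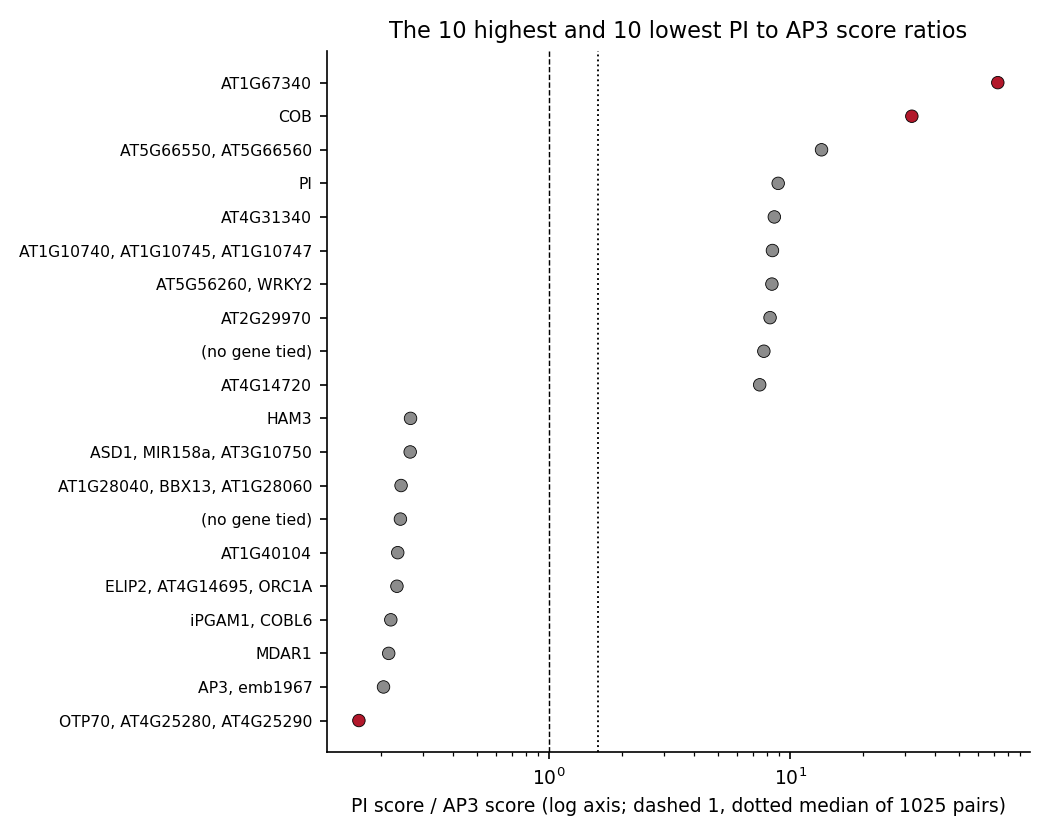
Ratio of PI score to AP3 score (log axis) of the 10 highest and 10 lowest of 1025 shared pairs, 1 point per pair, named by the genes tied to it, with the 3 described sites in red. AT1G67340 (72.7) and COB (32.0) stand apart from the third pair (13.5), while the site of OTP70, AT4G25280 and AT4G25290 (0.162) is close to the AP3 gene (0.205).

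The sites were also set beside peaks of like rank in the same list. All 25 of the highest PI peaks, of which COB is the 25th, overlapped an AP3 peak. Among the 23 other than AT1G67340 and COB, AP3 scores ran from 113 to 9926 with a median of 981, and the lowest of them ranked 396th in the AP3 list. The AP3 scores of 49.0 at AT1G67340 and 45.9 at COB were below all of these 23. For OTP70 the 51 AP3 peaks within 25 ranks of its peak, scored 306 to 427, were used. Of these, 50 overlapped a PI peak and 1 did not, and the PI scores of the 50 ran from 111 to 1716 with a median of 548. The PI score of 56.5 at OTP70 was below all 50. Scores of like peaks were thus well above the weaker score at each of the 3 sites, which also follows from how they were chosen.

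The peak lists held other peaks at AT1G67340 and COB within 5 kb of the PI maximum, and none at OTP70. At AT1G67340 there were 3 PI peaks and 2 AP3 peaks in this range. The peaks beside the main one lay 2559 bp before the main PI maximum, at lower coordinates, with 392 for PI (chromosome 1, 25226268 to 25226701) and 135 for AP3 (25226325 to 25226609). Their ratio was 2.91, at the 82.3rd percentile of all pairs, and their maxima were 42 bp apart. A weak PI peak of 37.8 lay 3575 bp before the main maximum, and no AP3 peak overlapped it. No window of a listed gene held the scores of these further peaks, though a window gives only its largest score. The PI score was 3560 at the main peak and 392 at the side peak, whereas the AP3 scores were ordered the other way, 49.0 at the main peak and 135 at the side peak.

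At COB the lists held 5 PI peaks and 5 AP3 peaks within 5 kb, and each PI peak overlapped an AP3 peak. The gene before COB is FUL (AT5G60910, also AGL8), a MADS-box gene of inflorescence and fruit development, and 3 of the pairs stood in its windows. Inside FUL, 4891 bp before the COB maximum, PI scored 528 and AP3 scored 1062, a ratio of 0.497. This AP3 peak ranked 15th in its list, and the PI peak 131st in its own. In the window 0 to 1000 bp upstream of FUL, 4160 bp before the COB maximum, PI scored 285 and AP3 scored 107 (ratio 2.67). In the window 1000 to 2000 bp upstream of FUL, 3142 bp before it, PI scored 416 and AP3 scored 125 (ratio 3.34).

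The next pair lay 889 bp before the COB maximum, and its scores were in no gene window, with 210 for PI and 32.3 for AP3 (ratio 6.49). The last pair is that of COB, with a ratio of 32.0. From the body of FUL towards COB the ratios thus came in rising order, 0.497, 2.67, 3.34, 6.49 and 32.0, from the 2.63rd to the 99.9th percentile of all pairs. PI scores did not follow that order (528, 285, 416, 210 and 1468), and the AP3 score was 1062 inside FUL and between 32.3 and 125 at the other pairs. The upstream windows of FUL are filled in the direction of COB, so the COB peak lay on the upstream side of FUL. No window of FUL held the COB score in either table, and its window 2000 to 3000 bp upstream was at 0. These are 5 neighbouring pairs of 1 locus, and the order of their ratios is given as a description. The pair at its upper end, that of COB, was chosen for its high ratio, so that end was fixed by the choice.

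At OTP70, AT4G25280 and AT4G25290 the shared peak stood alone. The nearest other peak of the same list lay 72.9 kb away for both PI and AP3. Over all peaks, the median distance to the nearest other maximum of the same list was 8.34 kb for PI and 10.2 kb for AP3. A distance at least as large was found at 8.21% of PI peaks and 12.9% of AP3 peaks. In contrast, the nearest other PI maximum was 2.56 kb away at AT1G67340 and 0.889 kb away at COB, and for AP3 these distances were 2.42 kb and 1.03 kb. Thus 1 of the 3 sites was isolated, and the other 2 had company within 5 kb, as did 42.2% of PI peaks and 39.5% of AP3 peaks.

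**Figure D3:**
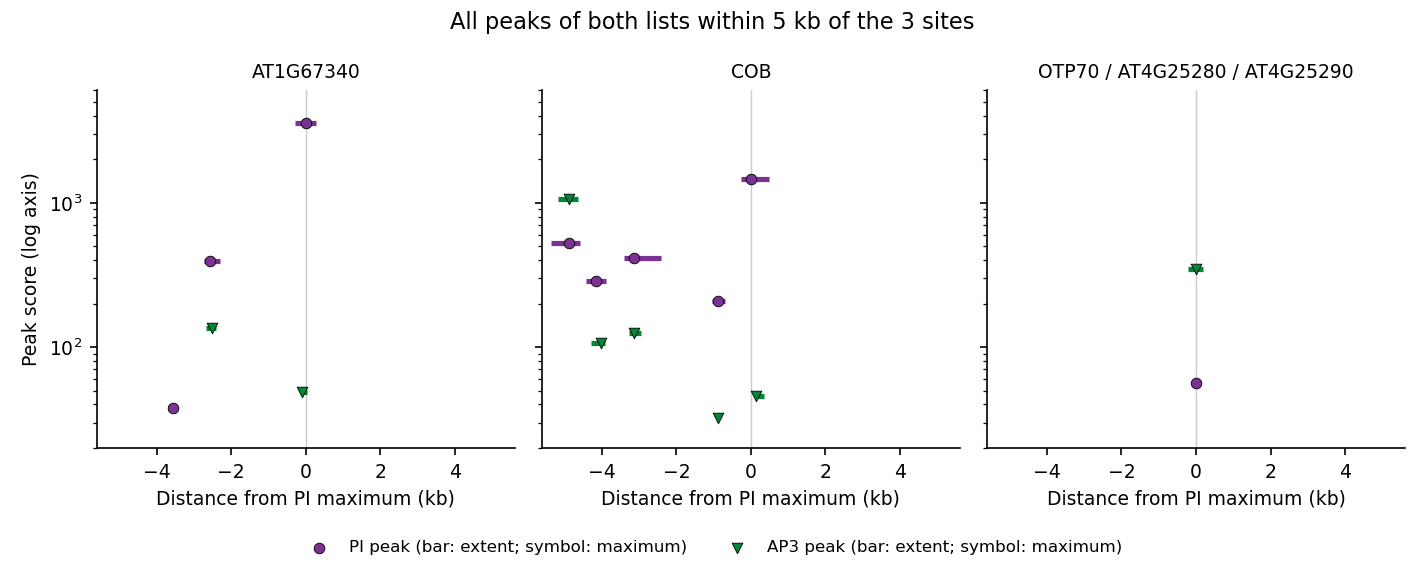
All peaks of both lists within 5 kb of the 3 sites, with distance from the site's PI maximum in kb on the horizontal axis (positive values at higher coordinates) and peak score on a log axis; symbols mark maxima and bars the extent of each peak, circles for PI and triangles for AP3. AT1G67340 has a side pair at which PI scored 392 and AP3 scored 135, COB has 4 further pairs towards and inside FUL, and the site of OTP70, AT4G25280 and AT4G25290 has no other peak.

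The distance between the PI maximum and the AP3 maximum differed between the sites. The AP3 maximum lay 101 bp before the PI maximum at AT1G67340, 143 bp after it at COB and 13 bp after it at OTP70, in the order of coordinates. Over all 1025 pairs the median distance was 23 bp (quartiles 4 and 66). A larger distance was found at 13.8% of pairs for AT1G67340, at 6.24% for COB and at 59.2% for OTP70. At COB the PI maximum lay 122 bp outside the AP3 peak, an arrangement found at 55 of 1025 pairs (5.37%). At AT1G67340 and OTP70 each maximum lay inside the peak of the other protein.

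Distances were also compared with pairs of like PI score. Among the 100 shared pairs with the highest PI scores, the median distance was 14 bp, 7 had a distance of at least 101 bp and 2 of at least 143 bp, with AT1G67340 and COB counted among them. The pair at AT5G66550 and AT5G66560, next in the order of ratios, had its maxima 132 bp apart. Thus the 3 highest ratios each had a distance over 100 bp between maxima. This distance depended on the choice of maxima at AT1G67340 and OTP70, where the midpoints of the peaks were 37 bp and 33.5 bp apart. The 7 pairs next in order had distances of 0 to 55 bp. Among the 10 lowest ratios, 2 had a distance of at least 100 bp, MDAR1 (112 bp) and the pair tied to no gene (117 bp). At all 1025 pairs this share was 14.3%. The AP3 scores at AT1G67340 and COB were low (49.0 and 45.9), and their part in these distances was not tested.

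**Figure D4:**
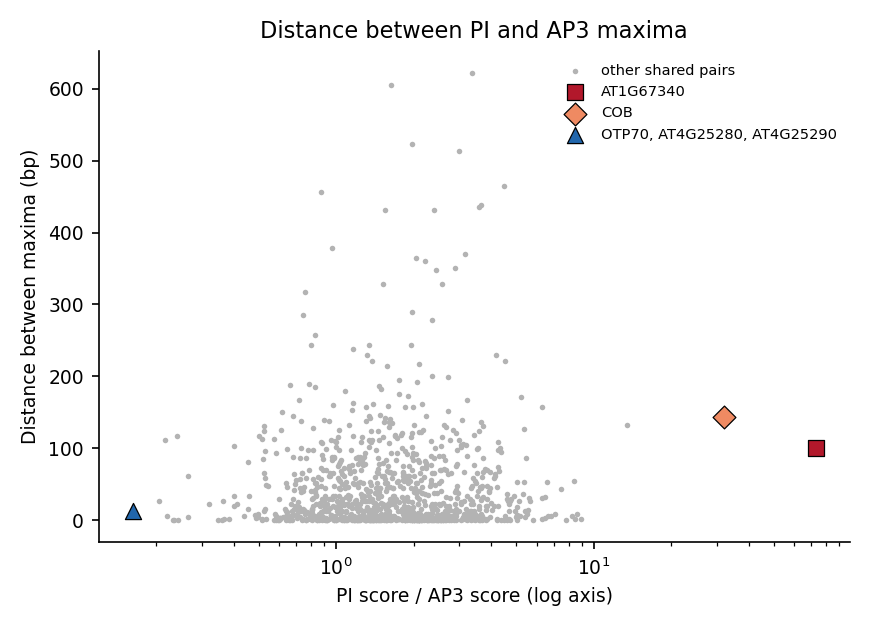
Distance between PI and AP3 maxima in bp against the ratio of PI score to AP3 score on a log axis, 1 point per shared pair, for 1025 pairs. AT1G67340 (101 bp) and COB (143 bp) lie at the far right, and the site of OTP70, AT4G25280 and AT4G25290 (13 bp) at the far left.

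At all 3 sites the peak with the higher score was also the wider one. This was not particular to them. The ratio of PI width to AP3 width was 1.52 at AT5G66550 and AT5G66560 and 0.594 at AP3. At ASD1, among the 10 lowest score ratios, it was 1.07, so there the peak with the higher score was the narrower one. The share of all pairs with this arrangement was not counted. At AT1G67340 the PI peak was 3 times as wide as the AP3 peak, at COB it was 3.32 times as wide, and at OTP70 the ratio of widths was 0.503, against a median of 1.32 over all pairs. The ratio of widths had rank 89 from the wide end at AT1G67340, rank 74 at COB and rank 15 from the narrow end at OTP70. The choice put the sites at the ends of the score ratio, so less extreme ranks in width are not read as a result. The PI peak at AT1G67340 was narrow for its score. Among the 25 highest PI peaks it was the 4th narrowest, at 573 bp, while the 23 other than AT1G67340 and COB ran from 539 to 3325 bp with a median of 842 bp. Its score per bp of width, 6.21, was the highest of the PI list, and the next was 4.12. The COB peak, at 753 bp, was the 10th narrowest of the 25 and ranked 22nd in score per bp. Score per bp rises with the score that the choice used, so nothing further is read from the ranks in it. The AP3 peak at OTP70 was 396 bp wide, against a median of 462.5 bp for the 52 AP3 peaks of like rank, its own included.

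**Figure D5:**
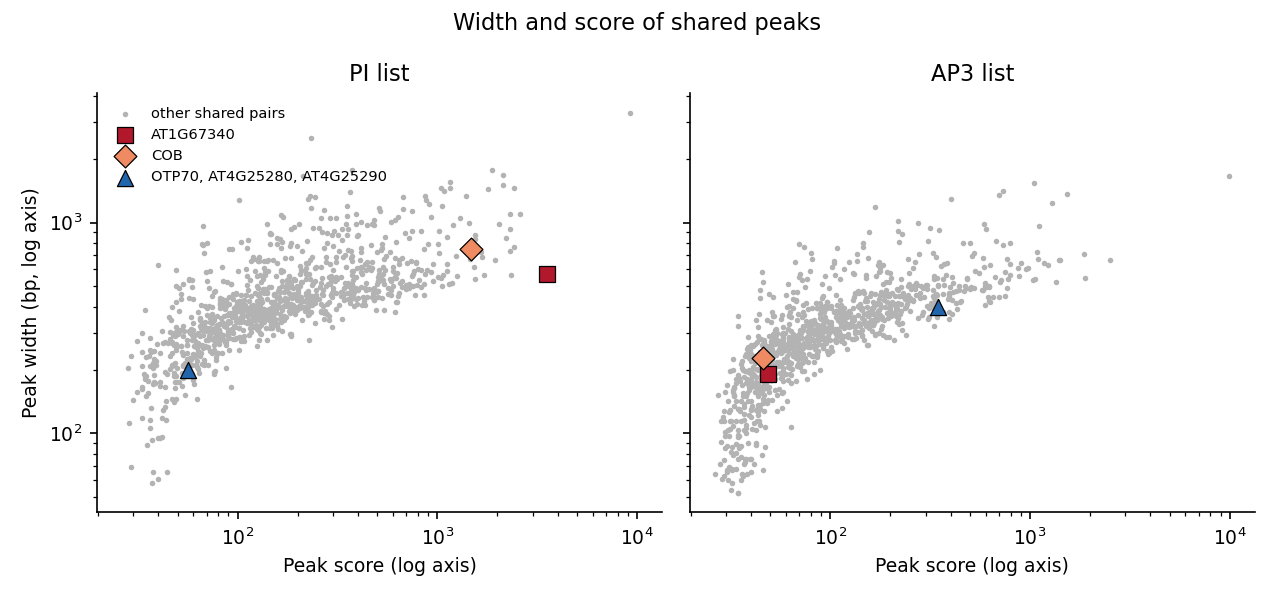
Peak width in bp against peak score, both on log axes, for the PI peaks (left) and AP3 peaks (right) of the 1025 shared pairs, 1 point per pair. AT1G67340 (573 bp, score 3560) is the 4th narrowest of the 25 highest PI peaks, and in the AP3 panel the 3 sites lie within the cloud of points.

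Relatives of the 5 genes were looked up to show how often such genes were listed at all. The COBRA, photolyase and organelle lists each include a chosen gene, COB, AT4G25290 or OTP70. These genes were listed for both proteins by the choice, so they raise the counts, and no excess over the shares is read from them. Of protein-coding genes, 8.69% were listed for PI, 7.26% for AP3 and 5.32% for both. In the COBRA family, which comprises COB and the COBRA-like proteins, 2 of 11 genes were listed, and both were listed for PI and for AP3. These were COB and COBL6, and their scores were unequal in opposite directions. COB had 1468 for PI and 45.9 for AP3, whereas COBL6 had 60.7 for PI and 276 for AP3, the fourth lowest ratio of all pairs. Both scores stood in the window 0 to 1000 bp downstream, and at COBL6 the same peak also lay 0 to 1000 bp upstream of iPGAM1. The median score of the listed COBRA genes was 764 for PI and 161 for AP3, against 87.7 and 58.2 over all listed genes, but each of these medians is of only 2 genes that were drawn from opposite ends of the order.

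Among 14 genes of cellulose synthesis, 2 were listed for PI and 1 for AP3, all with low scores. CTL1, which encodes a chitinase-like protein needed for cellulose deposition, had 59.1 for PI and 29.6 for AP3 in the window 0 to 1000 bp upstream. CESA3, a catalytic subunit of cellulose synthase in primary walls, had 28.8 for PI in that window and was not listed for AP3. The other CESA genes and KOR1, CSI1 and KOB1 were listed for neither. The median scores of those listed were 43.9 for PI and 29.6 for AP3, both below the medians of all listed genes.

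Among 7 photolyase and cryptochrome genes, 3 were listed for PI and the same 3 for AP3. Besides AT4G25290 (56.5 for PI, 348 for AP3) these were UVR3, the photolyase of 6-4 photoproducts, and the blue-light receptor gene CRY2. UVR3 had 258 for PI and 441 for AP3 in the window 0 to 1000 bp downstream, and it also had 164 for PI and 32.6 for AP3 in the window 2000 to 3000 bp upstream. Its window 0 to 1000 bp upstream had 67.6 for PI and was at 0 for AP3. Within this gene the higher score was thus that of AP3 downstream and that of PI in both upstream windows. CRY2 had 199 for PI and 166 for AP3 inside the gene. The listed genes had medians of 199 for PI and 348 for AP3. The AP3 median is the score of AT4G25290 itself, for which that gene was chosen.

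Among 10 genes named for organelle transcript processing, 1 was listed for PI and 2 for AP3. OTP70 (56.5 for PI, 348 for AP3) was the gene listed for both. OTP86, which encodes another pentatricopeptide repeat protein, was not listed for PI and had 33.6 for AP3 inside the gene. The median score of the listed genes was 56.5 for PI, from OTP70 alone, and 191 for AP3, from OTP70 and OTP86. OTP70 was chosen for its scores, so these medians do not describe the list.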

How the data were processed

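The deposited files of the PI-GFP and AP3-GFP libraries were used, 1 library each, and the negative control was not analysed here. Per the submitters' processing notes, the authors used BWA 0.6.1, SAMtools and TAIR10, and for peak calling and gene models the method is not given in the sources used here. Each score is as the authors deposited it, per the file headers a Poisson score per peak, with the largest score per window in the gene tables, which list only genes with a peak. Peak widths in bp are likewise as deposited.

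Peaks were paired in Python 3.11.15 with pandas 2.3.3. The step was tested on simulated lists with planted pairs. No simulated peak overlapped several partners, so the choice of the partner with the largest score was not tested there. The genes and gene lists were chosen with earlier results of these data known. Genes were named by a rule that took the 5 genes, genes tied to peaks within 5 kb, genes of the 10 highest and 10 lowest ratios, and listed members of 4 gene lists. A gene was tied to a peak by chromosome and identical score. Symbols and the order of genes were looked up by locus name in RefSeq's gene table (assembly TAIR10.1), and none of its coordinates were used. No test was run, because the ratio chose the genes and no group has replicates. DNA sequences were not used here. Alternatives were 13 other settings of pairing, radius, distance, gene windows and score minimum.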

Additional observations from a re-analysis of the deposited data

How the results depend on the processing

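No paired analysis was possible because each group has 1 library and no result comes from a test. The ratios at AT1G67340 (72.7), COB (32.0) and OTP70 (0.162) were the same wherever the pair existed. Each of these PI peaks overlapped only 1 AP3 peak, so no setting of the pairing could change its ratio. The pairs at AT1G67340 and COB were absent with a reciprocal overlap of 50% (786 pairs) and with maxima at most 100 bp apart (886 pairs), and all 3 were absent when peaks below the median score of their list were removed (570 pairs), so these settings give no value there. The pair at OTP70 kept the lowest ratio in the first 2 of these. By the difference of rank percentiles within each list, AT1G67340 ranked 10th, COB 7th and OTP70 2nd from their ends. With each AP3 peak paired with a PI peak (1059 pairs), AT1G67340 ranked 2nd and COB 4th. Within 2 kb, AT1G67340 had 1 PI peak and 1 AP3 peak, and COB had 2 PI peaks and 2 AP3 peaks. Midpoints of the peaks were 37 bp apart at AT1G67340 and 33.5 bp apart at OTP70. Counting only the gene itself and the 1000 bp before it, 0 COBRA genes were listed for either protein, 1 photolyase or cryptochrome gene for AP3, and 0 (PI) and 1 (AP3) organelle transcript processing genes. Of all protein-coding genes, 4.54% (PI) and 3.84% (AP3) were listed with this setting. With scores at or above the median of the list, 1 COBRA gene was listed for each protein, 0 genes of cellulose synthesis for either, and 0 (PI) and 1 (AP3) organelle transcript processing genes. The share of all protein-coding genes was then 4.32% (PI) and 3.65% (AP3). With lists this short, nothing is read from these counts. The cause of these changes was not tested, beyond fewer peaks or windows being counted. The search for CArG boxes was not run. Depth is unknown, so no limit can be set on a peak that is missing from a list.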
